A study of Rattus norvegicus with 6 samples.

Results

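Vestibular dark cells border the cristae and the utricle and secrete potassium into the endolymph, the fluid that drives current through hair cells (HCs). Potassium enters a dark cell from the side facing the tissue through the cotransporter encoded by Slc12a2, and leaves into the endolymph through a channel whose pore is encoded by Kcnq1 and whose accessory subunit is encoded by Kcne1. Chloride taken up with the potassium returns through channels that need barttin, the product of Bsnd. Slc26a4 encodes pendrin, an anion exchanger known mainly from the transitional cells beside the dark cells, and Foxi1 encodes a transcription factor of ion-transporting cells that is best known in the inner ear from the endolymphatic sac.

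These 6 genes were chosen by name from a table of 32883 genes, and each symbol matched a single row. RNA had been sequenced from the vestibular epithelium of Long-Evans rats, with the 2 utricles and 6 cristae of each animal pooled as a single sample. The Control group held 3 rats injected with PBS, and the STREP group 3 rats injected under the skin with 500 mg/kg of streptomycin once a day for 6 weeks from postnatal day 21. The female of each group was replicate 3 and the other 2 animals were males, and tissue was taken on the last day of treatment. The titles of STREP replicates 1 and 2 share a number and differ in a letter, and the labels do not say what either marks. The study describes them as separate animals, and they are treated so here. The organs had been trimmed of the tissue around them, and the share of dark cells that each dissection kept was not measured. The samples held several cell types of these organs, so that fewer dark cells and less RNA per dark cell cannot be told apart.

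Total counts ran from 48568191 to 59906048 in Control libraries and from 29333584 to 33744909 in STREP libraries, and all 6 carried the same batch label. The 10 most abundant genes took between 13.3 and 19.0% of the counts in 5 libraries and 21.8% in STREP replicate 3. Values are given below as normalised counts, which are counts divided by the size factor of the library, and compare libraries for a given gene but not genes with each other.

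Among the 6 genes, Slc12a2 alone passed the DESeq2 test and alone had groups that did not overlap, and its level was lower in STREP rats. Kcne1 and Kcnq1 had lower means in STREP rats, but their values overlapped between groups and neither passed the test. Bsnd and Slc26a4 had similar means in both groups, and Foxi1 had 0 counts in every library. A gene was called when the DESeq2 adjusted p-value was under 0.05 and the fold change exceeded 1.5. By this rule 0 of the 5 genes with counts were called, whereas 3.24% of all 16250 tested genes were. With DESeq2, 2 of the 5 had an unadjusted p-value under 0.05, as had 12.2% of all tested genes. By an adjusted p-value under 0.05 with no fold threshold, 1 of the 5 passed with DESeq2, against 3.72% of all tested genes, or 1.62% for lower levels. With edgeR, 0 passed, against 1.8% of all genes, or 1.77% with the fold threshold, and 1 had an unadjusted p-value under 0.05, as had 11.6% of all genes fitted with edgeR.

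Slc12a2 (ENSRNOG00000015971), the gene of the sodium-potassium-chloride cotransporter that loads dark cells with potassium, had 20720, 23400 and 21405 normalised counts in Control replicates 1, 2 and 3. The STREP replicates had 15850, 16045 and 12833. Every STREP value was below every Control value, with the lowest in STREP replicate 3. A complete separation in this direction was found for 8.63% of all tested genes, and in either direction for 17.8%. The group means were 21842 ± 1392 and 14910 ± 1801 (SD, n = 3). The log2 fold change was -0.55 ± 0.14 (SE), with an adjusted p-value of 0.0035 by DESeq2, a level 31.7% lower. Its fold change of 1.46 stayed within the threshold of 1.5. The exact two-sided permutation test gave p = 0.1, the smallest p-value that 3 animals against 3 allow. The adjusted p-value was not under 0.05 with edgeR (0.155 by the quasi-likelihood test) or with library totals as size factors (0.342 by DESeq2), and the log2 fold change ran from -0.56 to -0.47 over the settings other than leaving out 1 animal, and from -0.61 to -0.45 over those. Without Control replicate 2 the DESeq2 adjusted p-value was 0.0564 and the log2 fold change -0.50. Without STREP replicate 1 or 2, whose titles share a number, the DESeq2 adjusted p-values were 0.0120 and 0.00324.

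Unlike the channel subunits, Slc12a2 is also known from supporting cells, fibrocytes and glia, so markers of other cell types are given beside it. The summed normalised counts of 10 HC markers ran from 72143 to 73791 in Control and from 61315 to 72119 in STREP libraries. Those of 8 supporting cell markers ran from 459391 to 584663 and from 545298 to 955023, and those of 9 mesenchyme and fibrocyte markers from 752867 to 1189640 and from 610551 to 1516450. Those of 5 Schwann cell markers ran from 242414 to 337112 and from 127600 to 270588. All 5 had lower means in STREP rats, with a median log2 fold change of -0.42. Among them, Mbp had -0.59 and groups that did not overlap (adjusted p = 0.148, DESeq2). The HC sum did not overlap between groups, though the highest STREP value lay just under the lowest Control value, and the other 3 sums overlapped. Among single markers, 1 of 10 for HCs and 1 of 5 for Schwann cells were called lower, 1 for HCs was called higher, and 0 of 8 for supporting cells and 0 of 9 for mesenchyme and fibrocytes were called. Of all tested genes, 3.24% were called. With edgeR, 2 HC markers and 0 Schwann cell or neuron markers were called, against 1.77% of all genes. Slc12a2 passed by an adjusted DESeq2 p-value under 0.05 with no fold threshold. By that rule 4 of 10 HC markers passed, against 3.72% of all tested genes, with Myo7a (-0.49) and Lhfpl5 (-0.45) added. Pvalb was the HC marker called lower. The study lists Pvalb, Myo7a and Lhfpl5 as lower after streptomycin, partly from these samples, so their direction is not independent evidence. An unadjusted DESeq2 p-value under 0.05 was found for 6 HC, 2 Schwann cell and 1 neuron markers, against 12.2%. Groups did not overlap for 4 lower and 2 higher HC markers, against 17.8% in either direction. Most of the mesenchyme and fibrocyte sum came from Coch, with a log2 fold change of 0.059, while Dcn had -0.45, Col1a2 -0.40 and Tbx18 0.38. Of the supporting cell list and the mesenchyme and fibrocyte list, 3 and 2 genes had an unadjusted DESeq2 p-value under 0.05, and edgeR called 0 of each. Of 5 neuron markers 1 was called higher, and 0 of 5 for macrophages, 4 for endothelium and 4 rows for erythrocytes were called, with 2, 0 and 0 at an unadjusted DESeq2 p-value under 0.05 and 0 called by edgeR. Every marker in these lists had counts. The part of these cell types in the Slc12a2 result was not tested.

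**Figure D1:**
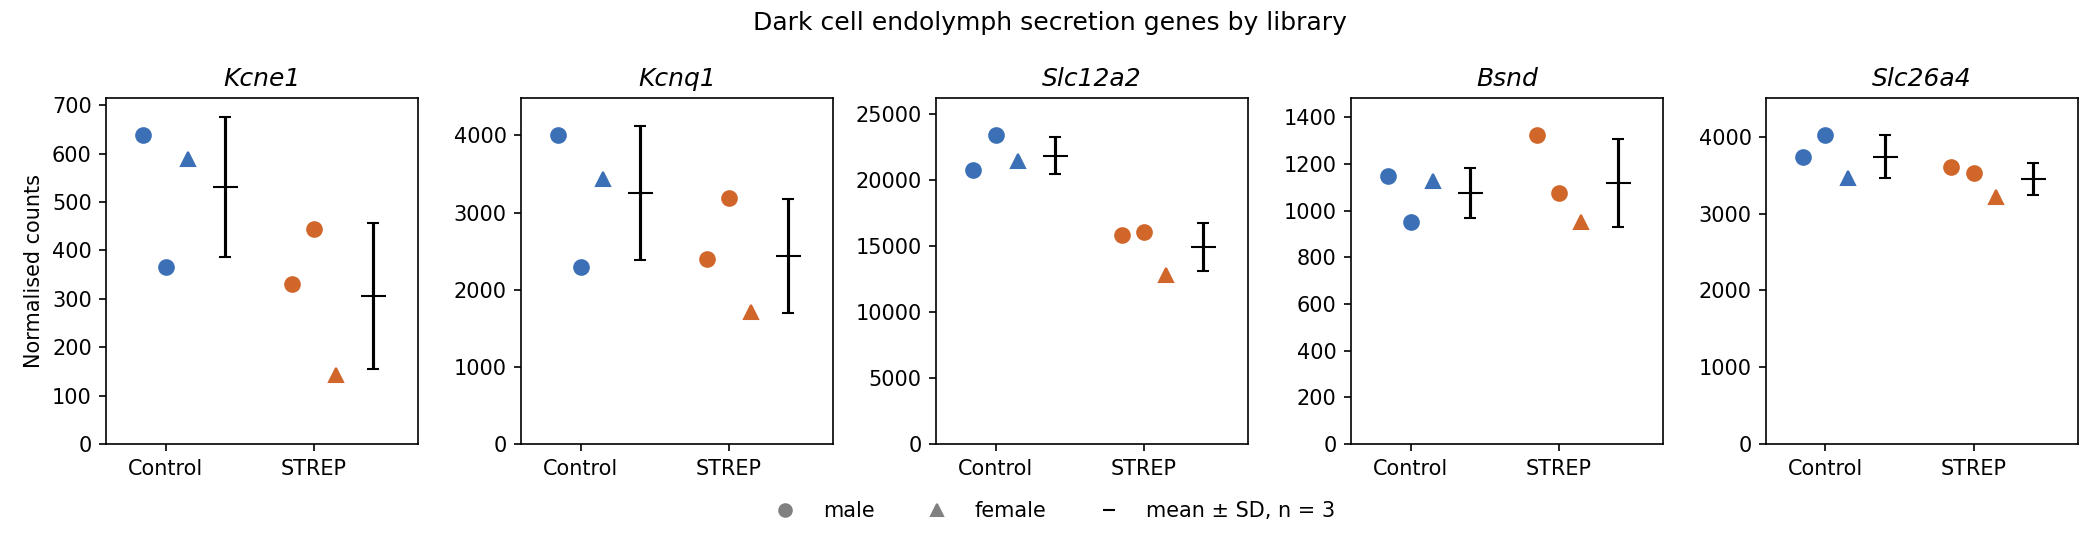
Normalised counts (vertical axes, each starting at 0) of the 5 genes with counts, with 1 point per library, circles for males and triangles for females, and bars for the mean ± SD of 3 animals. The 3 STREP values of Slc12a2, from 12833 to 16045, lie below the 3 Control values, from 20720 to 23400, while the groups overlap for Kcne1, Kcnq1, Bsnd and Slc26a4.

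Kcne1 (ENSRNOG00000001984), the accessory subunit that slows the opening of the potassium channel and increases its current, had 638, 366 and 589 normalised counts in Control replicates 1, 2 and 3. It had 330, 444 and 144 in STREP replicates 1, 2 and 3. Control replicate 2 lay below STREP replicate 2, so the groups overlapped, and the female STREP replicate 3 was the lowest of all. The means were 531 ± 145 and 306 ± 152 (SD, n = 3), and the log2 fold change was -0.79 ± 0.37 (SE), with an adjusted p-value of 0.333 by DESeq2. The 95% interval of this difference, from -1.52 to -0.063, reached from a loss of over 1.5-fold to almost none. With both STREP and Control females left out, the log2 fold change was -0.38, and without STREP replicate 3 alone it was -0.46. Without STREP replicate 2 it was -1.16, and over all settings tried the smallest DESeq2 adjusted p-value was 0.0749.

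Kcnq1 (ENSRNOG00000020532), the pore of the same channel, had 4004, 2299 and 3438 normalised counts in Control replicates and 2401, 3190 and 1717 in STREP replicates. The libraries lay in the same order as for Kcne1 within each group, with Control replicate 2 and STREP replicate 3 low. The log2 fold change was -0.41 ± 0.25 (SE), with an adjusted p-value of 0.548 by DESeq2 and a 95% interval from -0.90 to 0.075. Of the 5 genes, these channel genes had the largest female minus male differences in log2 fold change, -1.66 for Kcne1 and -0.83 for Kcnq1, with 1 female per group and adjusted p-values of 0.593 and 0.924 by DESeq2. For Kcnq1 the log2 fold change was -0.17 among males alone, -0.21 without STREP replicate 3 and -0.66 without STREP replicate 2.

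Bsnd (ENSRNOG00000006543), the barttin subunit of the chloride channels, had 1148, 952 and 1126 normalised counts in Control replicates and 1323, 1076 and 951 in STREP replicates. The highest and the lowest of the 6 values were both in STREP animals. The log2 fold change was 0.055 ± 0.19 (SE), with an adjusted p-value of 0.974 by DESeq2, and its 95% interval, from -0.31 to 0.42, lay inside the 1.5-fold threshold in both directions.

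Slc26a4 (ENSRNOG00000058692), which exchanges chloride for bicarbonate, had 3733, 4021 and 3463 normalised counts in Control replicates and 3605, 3522 and 3210 in STREP replicates. This was the narrowest spread of the 5 genes, with 1.25-fold between the highest and the lowest library, where Kcne1 had 4.44-fold. The log2 fold change was -0.12 ± 0.13 (SE), with an adjusted p-value of 0.853 by DESeq2 and a 95% interval from -0.38 to 0.14 that also lay inside the threshold.

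Foxi1 (ENSRNOG00000006293) had 0 counts in all 6 libraries. At a detection floor of 3 counts, this allows at most between 1.84 and 4.49 normalised counts per library, counting error alone considered. Its relatives Foxi2 and Foxi3 were also at or near 0, with Foxi2 counts in 1 library and Foxi3 counts in none.

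The 5 genes differed in how far they varied between libraries. Within the Control group, Kcne1 and Kcnq1 of replicate 2 lay 0.49 and 0.46 below the group mean on the log2 scale, while Slc12a2 and Slc26a4 of the same animal lay 0.10 and 0.11 above it. In STREP replicate 3 all 5 genes were below their group mean, Kcne1 by 0.94, Kcnq1 by 0.46, Bsnd by 0.22, Slc12a2 by 0.21 and Slc26a4 by 0.10. In STREP replicate 2, Kcne1 lay 0.68 and Kcnq1 0.43 above it. The spread of the 2 channel subunits between animals of the same group was therefore wider than that of the 2 transporters and of Bsnd. The root mean square difference between 2 profiles over the 6 libraries, each centred on its own mean log2 level, was 0.34 for Kcne1 and Kcnq1, 0.65 for Kcne1 and Bsnd, and 0.19 for Bsnd and Slc26a4. These distances are descriptions over 6 libraries.

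A ratio of 2 genes in the same library depends little on how the library was scaled. The log2 ratio of Kcne1 to Kcnq1 was -2.65, -2.65 and -2.54 in Control replicates 1, 2 and 3, although both genes were much lower in replicate 2. It was -2.86, -2.84 and -3.57 in STREP replicates 1, 2 and 3. All 3 STREP ratios were below all Control ratios, those of the males by a smaller margin than that of the female. The means were -2.61 ± 0.060 and -3.09 ± 0.42 (SD, n = 3), a difference of -0.48 (p = 0.1 by the exact two-sided permutation test, which cannot give less). Without STREP replicate 3 the difference was -0.24. The log2 ratios of Slc12a2 to Kcne1 and of Slc26a4 to Kcne1 overlapped between groups, with differences of 0.34 and 0.78 (exact two-sided permutation p = 0.6 and 0.3). Without STREP replicate 3 these differences were -0.021 and 0.36. With 3 ratios compared, none could pass a threshold of 0.05 in this design.

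**Figure D2:**
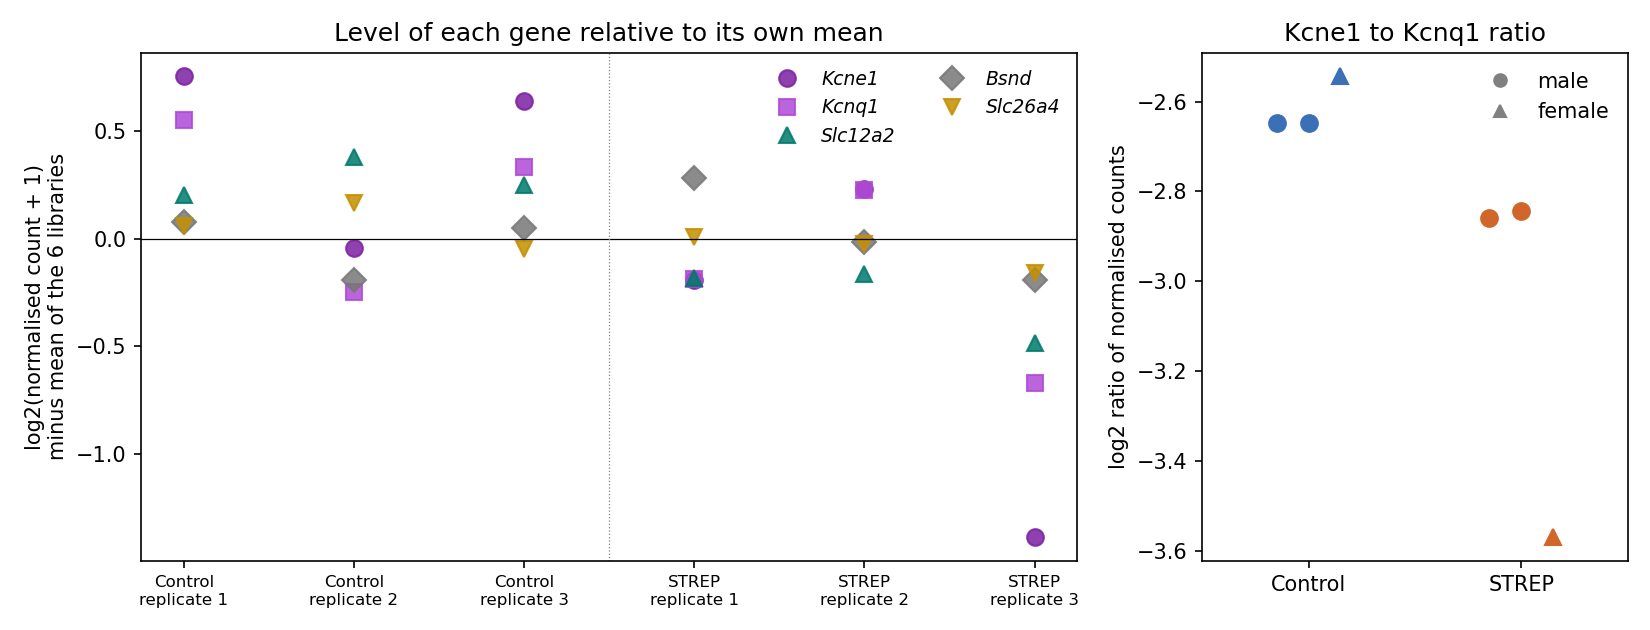
The left panel plots, for each of the 6 libraries, the log2(normalised count + 1) of 5 genes minus the gene's own mean over the libraries, and the right panel the log2 ratio of Kcne1 to Kcnq1 by group, with circles for males and triangles for females. Kcne1 and Kcnq1 spread most between libraries, and the ratio runs from -2.65 to -2.54 in Control and from -3.57 to -2.84 in STREP animals.

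Other genes linked to dark cells were read from a list of 12, all of them tested. This list of dark cell partner genes held transport genes and also transcription factors such as Esrrb, and 11 had a mean of at least 10 normalised counts. Of these, 1 was called lower, 0 were called higher and 11 were not called, whereas 1.37% of all tested genes were called lower and 1.87% higher. The median log2 fold change of the list was -0.35, and that of all tested genes 0.0069. Car2, which encodes a carbonic anhydrase found in many epithelia and in glia, had 6222, 4821 and 4863 normalised counts in Control and 3708, 2254 and 2356 in STREP replicates. It fell by 0.94 ± 0.21 on the log2 scale (SE), with an adjusted p-value of 6.01e-04 by DESeq2, and every STREP value was below every Control value.

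The sodium pump, which holds the gradient that Slc12a2 runs on, was read from its beta subunits Atp1b1 and Atp1b2. Atp1b2 ran from 18989 to 24979 normalised counts in Control and from 16343 to 18272 in STREP libraries, so its groups did not overlap. Its log2 fold change of -0.36 ± 0.14 did not pass the test (adjusted p = 0.182, DESeq2). Atp1b1 had -0.23 and the potassium channel gene Kcnj16 -0.17, both with overlapping groups. Without STREP replicate 3, Atp1b1 had -0.50 (adjusted p = 0.0381, DESeq2), and without Control replicate 2, Atp1b2 had -0.47 (adjusted p = 0.0185, DESeq2), each within the 1.5-fold threshold. Esrrb, a nuclear receptor known from potassium-secreting cells of the inner ear, had only 158, 39.1 and 140 normalised counts in Control replicates and 78.6, 144 and 41.9 in STREP replicates. Like Kcne1, it was low in Control replicate 2 and STREP replicate 3. Its relative Esrrg, also named after its values were seen, had 366, 553 and 374 in Control replicates and 419, 394 and 199 in STREP replicates, so that Control replicate 2 was its highest library.

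**Figure D3:**
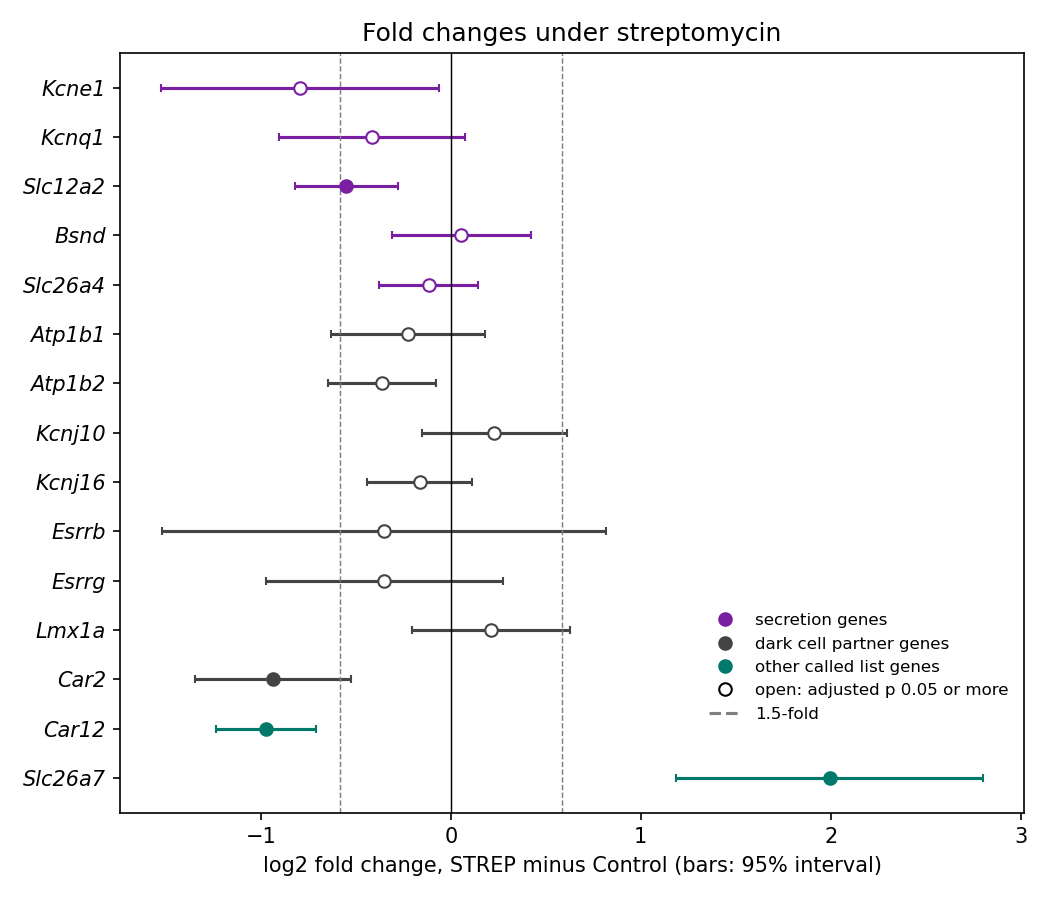
Log2 fold change of STREP minus Control (horizontal axis) with 95% intervals for the 5 secretion genes with counts, dark cell partner genes with a mean of at least 100 normalised counts, and 2 other called genes. Filled points had a DESeq2 adjusted p-value under 0.05 and dashed lines mark a 1.5-fold change. Slc12a2 at -0.55 is filled but lies inside the dashed lines, and Car2, Car12 and Slc26a7 lie outside them.

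The gene families of the channel, the cotransporter, pendrin and Foxi1 held 28 further genes, of which 22 were tested. Of these 22, 1 was called higher, 0 were called lower and 21 were not called, where 1.87% of all tested genes were called higher and 1.37% lower. The median log2 fold change of the family genes was -0.17. The called gene was Slc26a7, which encodes an anion exchanger related to pendrin. It rose from 66.9, 37.4 and 93.7 normalised counts in Control replicates to 363, 207 and 218 in STREP replicates, and the log2 fold change was 1.99 ± 0.41 (SE), with an adjusted p-value of 1.21e-04 by DESeq2. Every STREP animal was above every Control animal. Slc26a4 and Slc26a7 thus had log2 fold changes of -0.12 and 1.99, with 95% intervals, from -0.38 to 0.14 and from 1.19 to 2.80, that did not overlap.

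Among relatives of Kcne1, named here after their values were seen, Kcne2 had 371, 387 and 269 normalised counts in Control and 126, 28.1 and 217 in STREP replicates. These groups were separate, but the log2 fold change of -1.47 ± 0.52 did not pass the test (adjusted p = 0.102, DESeq2). It was called lower among males alone (-2.31), with library totals as size factors (-1.63) and without STREP replicate 3 (-2.16). It was not called with edgeR (adjusted p = 0.289, or 0.454 with no filter), and without STREP replicate 2, the lowest library, the log2 fold change was -1.002 (adjusted p = 0.0899, DESeq2). Kcne3 ran from 173 to 301 and from 302 to 437, barely separate groups, with a log2 fold change of 0.65 (adjusted p = 0.280, DESeq2). Among family genes with high normalised counts, the potassium-chloride cotransporters Slc12a4 (-0.20) and Slc12a7 (-0.26) and their relative Slc12a9 (0.10) had overlapping groups and were not called.

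Proton and bicarbonate transport sets the pH of the endolymph. Of 13 tested genes in this list, 2 were called lower, 0 were called higher and 11 were not called, with a median log2 fold change of -0.11. Of all tested genes, 1.37% were called lower and 1.87% higher. Besides Car2, which both lists hold, the called gene was Car12, a carbonic anhydrase of the cell surface. Car12 fell from 7966, 7562 and 7535 normalised counts in Control replicates to 4408, 3563 and 3774 in STREP replicates (log2 fold change -0.97 ± 0.13, SE; DESeq2, adjusted p = 1.42e-10). Car12 stands on a list of genes that the study chose partly on these samples, so its direction is not independent evidence. The study marks it there as selective for HCs over supporting cells, and the part of HCs in its lower level was not tested. The proton pump subunits Atp6v1b2 and Atp6v0a1 had log2 fold changes of -0.11 and 0.18 and overlapping groups.

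**Figure D4:**
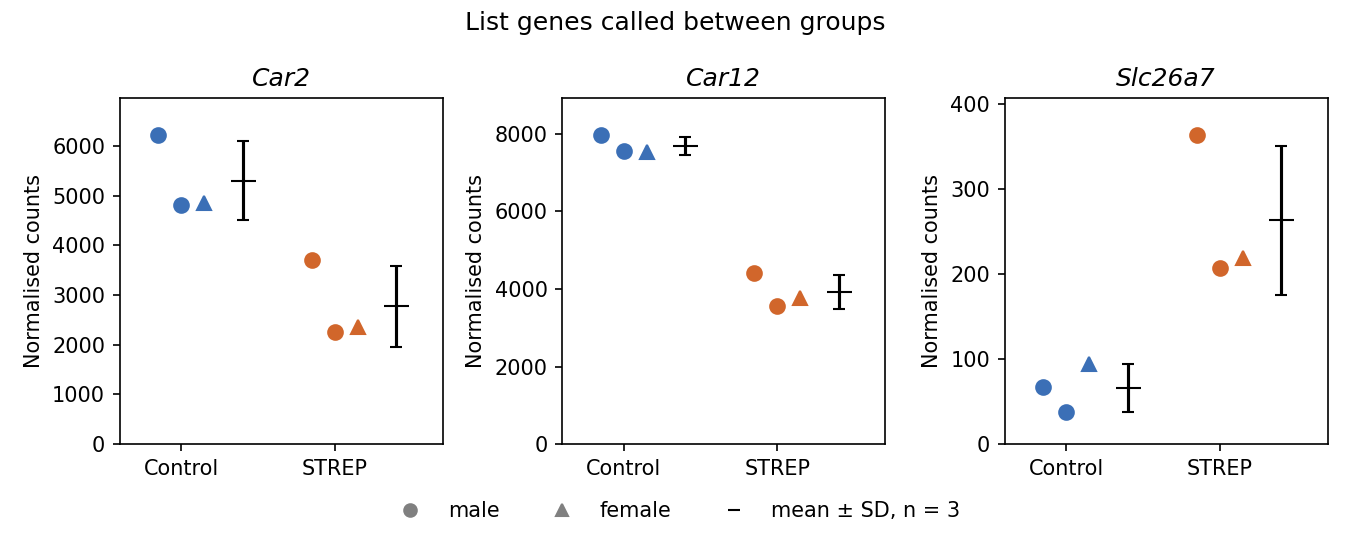
Normalised counts (vertical axes from 0) of the 3 list genes called between groups, with 1 point per library, circles for males and triangles for females, and bars for the mean ± SD of 3 animals. Car2 and Car12 are lower in all 3 STREP animals, and Slc26a7 is higher, at 207 to 363 against 37.4 to 93.7.

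Regulators of potassium secretion, such as the kinases that activate the cotransporter and receptors that act on the channel, were read from 13 tested genes. Of these, 0 were called by DESeq2 or edgeR and 0 had an unadjusted p-value under 0.05 by either tool. Of all genes, DESeq2 called 3.24% and edgeR 1.77%, and 12.2% and 11.6% had an unadjusted p-value under 0.05. The median log2 fold change of the regulators was 0.059. Wnk1, a kinase upstream of Slc12a2, had 0.18 ± 0.15, and Sgk1, a kinase induced by steroid hormones, had -0.028 ± 0.12. Akap9, which anchors a kinase at the Kcnq1 channel, had -0.037. The list held 1 call among males alone and from 0 to 1 with 1 animal left out, the call without STREP replicate 3.

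All 8 markers of dark cells, 4 of them among the secretion genes themselves, had a mean of at least 10 normalised counts. Their summed level ran from 47192 to 53339 in Control and from 33269 to 40216 in STREP libraries, a sum to which Slc12a2 and Atp1b2 contributed most. Groups did not overlap for these 2 markers alone, where 8.63% of all tested genes were separate in this direction. Of the 8 markers, 0 were called by DESeq2 or edgeR, where these tools called 3.24% and 1.77% of all genes. An unadjusted DESeq2 p-value under 0.05 was found for 3 of them, against 12.2% of all tested genes. Melanocytes, which lie beneath dark cells, were read from 5 matched markers, of which DESeq2 and edgeR called 0, while 2 had an unadjusted p-value under 0.05 by each tool. Of all genes, 12.2% had such a p-value with DESeq2 and 11.6% with edgeR. The summed level of the melanocyte markers overlapped, from 25411 to 26360 in Control and from 25824 to 38536 in STREP libraries. Pmel, with a log2 fold change of 0.29, made up most of this sum, and the other 4 markers had lower means in STREP rats, with a median of -0.96 over the list.

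The profiles of 12126 other genes with a mean of at least 100 normalised counts were compared with the mean profile of the 5 expressed genes over the 6 libraries. The nearest were Fbxw4, Zscan22, Tmsb15b2, Foxred1 and Fabp3, with root mean square differences from 0.042 to 0.074 on the log2 scale. Nearest to Kcne1 alone were Adprhl1 (0.17), Pygm (0.20), Rab7b (0.22), Slc16a3 (0.22) and Acrbp (0.27), all closer than Kcnq1. None of these 10 genes was called between groups, as the DESeq2 adjusted p-values ran from 0.340 to 0.784. They were picked for likeness to genes that were not called themselves, so this adds no separate evidence.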

How the data were processed

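The authors aligned paired reads to the rat genome Rnor6.0 with STAR (2.5.3a per the submitters' processing notes) and quantified genes with RSEM (1.3.0 per the same notes). They deposited 1 table of expected counts, the estimated reads per gene, unscaled, in which 0 values were not whole. Libraries followed a SMARTseq2 protocol without molecular identifiers, so floors cover counting error only. All 32883 genes were fitted in R 4.3.3 with DESeq2 1.42.0 (size factors by median of ratios, a model with group alone, two-sided Wald tests, Benjamini-Hochberg adjustment over all tested genes, independent filtering). The study's methods name DESeq2 in an older version and the same thresholds, and leave the other settings unstated. The study reports more genes lower and more genes higher after streptomycin than the 223 and 304 called here. It also lists Myo7a and Lhfpl5 as lower, which were not called here, so calls need not match those of the study. Single values and log2 ratios, with a pseudocount of 1, were compared by exact permutation. Alternatives included edgeR 4.0.16 quasi-likelihood tests. The procedure was tested on simulated data. Replicates were numbered in accession order and pair no animals.

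The genes and lists were chosen with earlier results of these data known. The text names the 6 genes, the called genes and the 4 most abundant of each list, and the 5 nearest profiles, except some genes that are not reported here by name but stay in the counts. Esrrb, Esrrg, Kcne2, Kcne3, Foxi2 and Foxi3 were named in addition, after their values were seen. Nr3c1 and 3 marker symbols matched no row. Reads shared by near-identical genes are apportioned by RSEM, which leaves family members less certain. Gene coordinates and lengths were not used here.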

Additional observations from a re-analysis of the deposited data

How the results depend on the processing

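No paired analysis was possible because the labels give no replicate number shared between groups. Slc12a2 kept its direction in every fit, but its adjusted p-value was not under 0.05 with edgeR and a count filter (log2 fold change -0.55), with edgeR and no filter (-0.56) or with library totals as size factors (-0.54), and the cause was not tested. With 1 animal left out, log2 fold changes ran from -0.61 to -0.45 for Slc12a2, from -1.16 to -0.46 for Kcne1, from -0.66 to -0.21 for Kcnq1, from -0.083 to 0.16 for Bsnd and from -0.17 to -0.064 for Slc26a4. Bsnd was below 0 without Control replicate 2 (-0.027) or STREP replicate 1 (-0.083). Foxi1 gave no value in any fit. The number of the 6 genes called was 1 with no fold change threshold and from 0 to 1 with 1 animal left out. That gene was Slc12a2, which was over the threshold without Control replicate 1, STREP replicate 1 or STREP replicate 2. The gene families held 2 calls with library totals as size factors and among males alone, and from 1 to 2 with 1 animal left out, Kcne2 being the added gene. The regulators held 1 call among males alone and from 0 to 1 with 1 animal left out. Among males alone, Slc12a9 (-0.030), Akap9 (0.14) and Esrrb (0.17) changed sign. With 1 animal left out, values ran from -0.046 to 0.36 for Atp6v0a1, from -0.076 to 0.015 for Sgk1 and from -0.17 to 0.068 for Akap9, none of them called. Car2, Car12 and Slc26a7 kept their calls in the 5 other settings run for single list genes and with each animal left out.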
